A study of Mus musculus with 6 samples.

Results

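The CDK inhibitor genes are the 7 mouse genes of the Cip/Kip family (Cdkn1a, Cdkn1b and Cdkn1c) and the Ink4 family (Cdkn2a, Cdkn2b, Cdkn2c and Cdkn2d). They were found by symbol on the array. All 7 genes were measured, by 9 of the 45037 probe sets tested, and they make up 7 of the 18193 genes with a probe set annotated to exactly 1 symbol. Cdkn1a and Cdkn1b had 2 probe sets each and the others 1. The brightest probe set by the mean over all arrays stands for a gene. The arrays, Affymetrix mouse expression arrays, hold RNA from LKS+ cells, the lineage-negative marrow cells with high c-Kit and with Sca-1 on their surface, which include hematopoietic stem cells and multipotent progenitors. Wild-type (WT) mice gave 3 of the arrays and Apcmin mice the other 3. In Apcmin the Apc gene carries the Min allele, a premature stop codon. Min mice carry this allele beside a normal copy of Apc in all their cells, so the blood cells and the surroundings they came from shared the genotype. At least 20000 cells per mouse had been sorted at a purity above 90%, and the RNA was amplified before labelling. No strain, age or sex is given in the labels, and no label names the animals. The p-values therefore measure the spread between these arrays.

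CDK inhibitors bind cyclin-dependent kinases and slow or stop the cell cycle. Cip/Kip proteins bind complexes of a cyclin with its kinase, chiefly those of Cdk2, and also help cyclin D to assemble with Cdk4 and Cdk6. Ink4 proteins bind Cdk4 and Cdk6 alone and keep cyclin D away. Both routes keep the retinoblastoma proteins active, which hold back entry into S phase. In the blood system these genes are known for their roles in stem cell quiescence (Cdkn1c, Cdkn1b and Cdkn1a), in the size of the progenitor pool (Cdkn2c) and in senescence (Cdkn2a).

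Values are log2 of the authors' normalized intensity, and a difference is Apcmin minus WT on that scale. None of the 7 genes passed an adjusted p of 0.05, and none of the 9 probe sets did (limma, adjusted by Benjamini-Hochberg over all probe sets). Over the whole array the share past that threshold was 0%, and no adjusted p was below 0.954. Without adjustment, a p under 0.05 was found for 3.81% of all probe sets and for 1 of the 9 CDK inhibitor probe sets, the dimmer one of Cdkn1a. Which probe set this was changed with the fit. With a mean-variance trend in limma, the brighter Cdkn1b probe set (unadjusted p = 0.0474, adjusted p = 0.949) and Cdkn2b (unadjusted p = 0.0335, adjusted p = 0.949) were under 0.05. The dimmer Cdkn1a probe set then had an unadjusted p of 0.0704. The mean was lower in Apcmin for 6 of the 7 genes and higher for 1, with a median difference of -0.11. Over all genes 57% had a lower mean in Apcmin, and the median difference was -0.04. By level it was -0.13 for genes with a mean under 3 and -0.18 from 3 to 4.5. It was 0.01 from 4.5 to 6 and 0.02 at 6 or above. The 2 groups overlapped for each of the 7 genes, while 7.73% of all genes separated them.

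**Figure D1:**
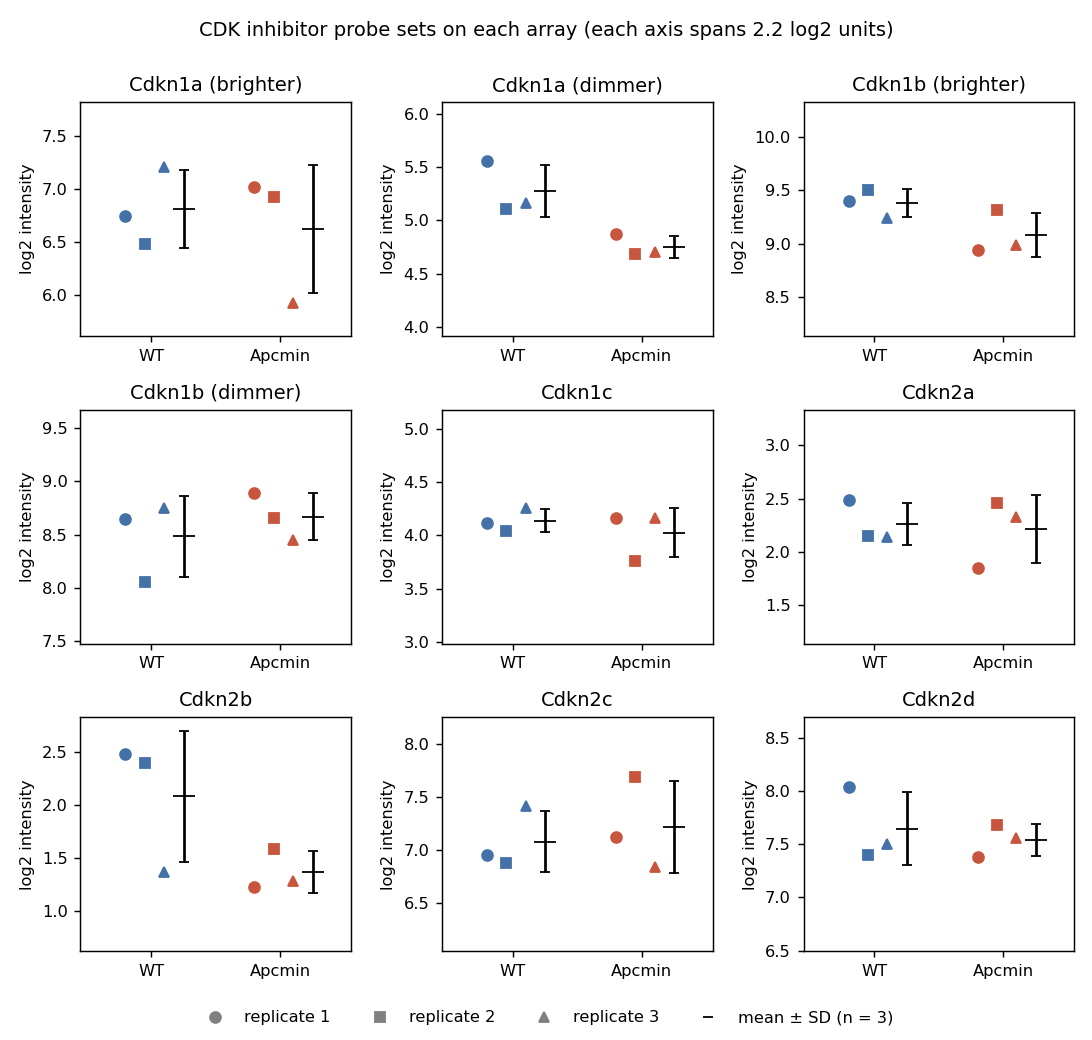
Log2 intensity of the 9 CDK inhibitor probe sets on each array, with WT in blue and Apcmin in red, marker shapes for replicate numbers, and black bars for the mean ± SD of 3 arrays. Each axis spans the same range in log2 units, and the dimmer Cdkn1a probe set is the one whose groups do not overlap, with WT from 5.11 to 5.56 and Apcmin from 4.68 to 4.87.

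The genes differed widely in where their probe sets lay on the arrays. Probe sets differ in how well they hybridize, so these places are no amounts of RNA and do not rank the genes by transcript number. Probe sets of olfactory and vomeronasal receptor genes, which blood cells are not known to express, served as a yardstick for signal without transcript. The 80 such probe sets had a median of 1.35, and 2.96 was their 95th percentile. The brighter Cdkn1b probe set had a mean of 9.23 over the 6 arrays, above 92.1% of all probe sets. Cdkn2d followed at 7.59 (above 80% of all probe sets), Cdkn2c at 7.15 (76.2%) and the brighter Cdkn1a probe set at 6.72 (72.4%). These 4 genes exceeded every one of the 80 receptor probe sets. Cdkn1c was at 4.08, close to the median probe set of the array at 4.12 and above 97.5% of the receptor probe sets. Cdkn2a at 2.24 and Cdkn2b at 1.72 lay within the receptor range, above 85% and 62.5% of it. The files hold no detection call, so a transcript level below what these 2 probe sets can show was not detectable here.

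**Figure D2:**
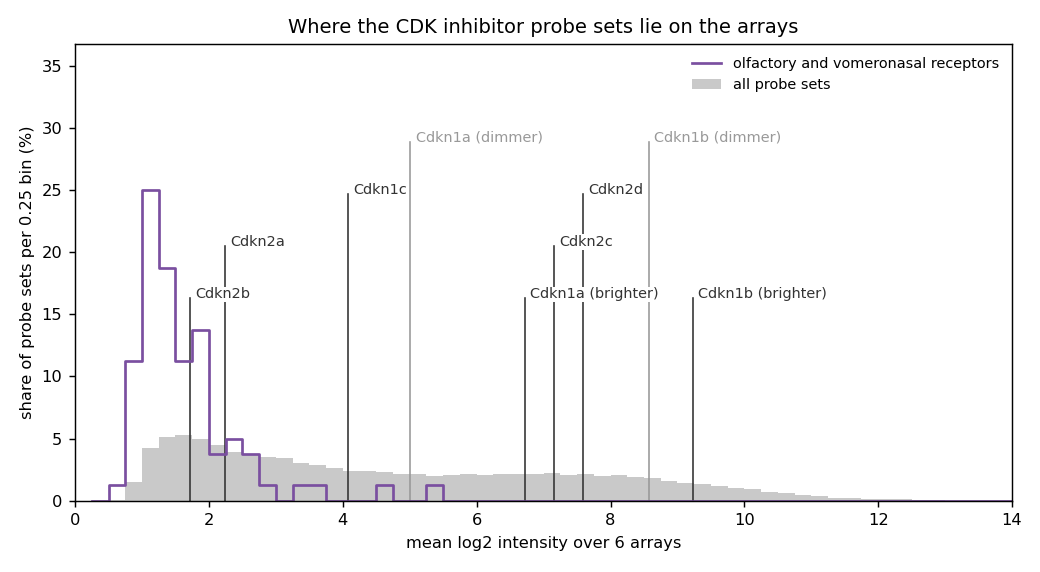
Share of all 45037 probe sets (grey) and of the 80 olfactory and vomeronasal receptor probe sets (purple line) by mean log2 intensity over 6 arrays, with vertical lines at the CDK inhibitor probe sets (dark for those that stand for a gene, light for the dimmer ones, line heights arbitrary). Cdkn2a and Cdkn2b lie inside the receptor distribution, and Cdkn1b, Cdkn2d, Cdkn2c and the brighter Cdkn1a probe set lie to its right.

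Cdkn1a encodes p21, a Cip/Kip protein that p53 induces after DNA damage. RefSeq (GRCm38.p6) places the gene at chr17:29090979-29100722 and gives it 2 transcription starts, 2790 bases apart. The 250 bases before each start are shown. Whether the starts bear on the different patterns of the 2 Cdkn1a probe sets was not tested. Capitals in the upstream window mark matches to the p53 half-site consensus. Capitals in the downstream window mark the GC box GGGCGG, the Sp1 motif. Both strands were searched.
Cdkn1a upstream, chr17:29090729-29090978, plus strand: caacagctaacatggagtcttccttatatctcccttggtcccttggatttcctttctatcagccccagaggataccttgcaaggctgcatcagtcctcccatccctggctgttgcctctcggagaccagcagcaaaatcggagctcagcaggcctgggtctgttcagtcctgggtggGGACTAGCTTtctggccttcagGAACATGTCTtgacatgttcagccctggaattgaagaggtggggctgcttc
Cdkn1a downstream, chr17:29093519-29093768, plus strand: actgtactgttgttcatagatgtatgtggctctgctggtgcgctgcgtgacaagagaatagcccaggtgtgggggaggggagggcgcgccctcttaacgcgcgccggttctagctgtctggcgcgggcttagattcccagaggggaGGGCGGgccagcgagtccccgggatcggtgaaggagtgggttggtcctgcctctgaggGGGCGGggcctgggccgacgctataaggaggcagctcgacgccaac
The upstream window held 2 p53 half-site matches, starting 73 and 51 bases before the start, and no GC box. The downstream window held 2 GC boxes and no half-site match. Of 32851 windows of 250 bases before RefSeq starts, 7.13% held a half-site match and 32.7% a GC box. Among the other members, the Cdkn2d window also held a half-site match, 102 bases before its start. The motifs ATCAAAG (Tcf/Lef), CACGTG (E-box) and GTAAACA (forkhead) were searched too. No window of a member held one, beside 3.21%, 6.02% and 3.17% of all windows. The ratio of observed to expected CpG was 0.11 upstream and 0.77 downstream, beside a median of 0.37 over all windows. Which of these starts the probe sets read is not given in the files.

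The brighter Cdkn1a probe set was at 6.75, 6.48 and 7.21 on WT replicates 1, 2 and 3 and at 7.02, 6.92 and 5.93 on Apcmin replicates 1, 2 and 3. A single array, Apcmin replicate 3, was below all others, and the remaining Apcmin arrays lay within the WT range. The difference was -0.20 with a standard error of 0.34, and its 95% confidence interval ran from -1.0 to 0.61 (limma, adjusted p = 0.962). Leaving out Apcmin replicate 3 gave 0.15, leaving out WT replicate 3 gave 0.00, and leaving out any other array gave values from -0.39 to -0.23. Its pooled SD within groups, 0.50, exceeded that of 89.7% of the 1919 probe sets within 0.25 of its level, whose median was 0.27.

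The dimmer Cdkn1a probe set was at 5.56, 5.11 and 5.16 in WT and at 4.87, 4.68 and 4.70 in Apcmin. Each Apcmin array lay below each WT array, as in 4.78% of all probe sets. The difference was -0.53, a 1.44-fold lower mean in Apcmin, with a 95% confidence interval from -0.94 to -0.12 (limma, unadjusted p = 0.0188, adjusted p = 0.954). Leaving out single arrays gave values from -0.61 to -0.39, and the unadjusted p in limma was 0.0583 without Apcmin replicate 2 and 0.0578 without Apcmin replicate 3. Probe sets at such levels, with means from 4.5 to 6, had a median difference of 0.05. This probe set was singled out after its values were seen, since it is not the one that stands for the gene. Set against the brighter probe set on the same array, it was lower by between 1.19 and 2.24, and that gap averaged 1.53 ± 0.45 (SD, n = 3) in WT and 1.87 ± 0.56 in Apcmin (two-sided exact permutation p = 0.40, where 0.10 is the smallest that 3 against 3 arrays can give). The 2 probe sets correlated weakly over the 6 arrays (r = 0.27). With the mean of both probe sets, the Cdkn1a difference was -0.36 (limma, unadjusted p = 0.116).

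Cdkn1b encodes p27, a Cip/Kip protein that accumulates in resting cells and is marked for degradation by Skp2. The gene lies at chr6:134920401-134925525. Its window is shown because its probe set had the largest difference among the 4 bright CDK inhibitor genes. The capitals mark a GC box, which starts 61 bases before the transcription start.
Cdkn1b, chr6:134920151-134920400, plus strand: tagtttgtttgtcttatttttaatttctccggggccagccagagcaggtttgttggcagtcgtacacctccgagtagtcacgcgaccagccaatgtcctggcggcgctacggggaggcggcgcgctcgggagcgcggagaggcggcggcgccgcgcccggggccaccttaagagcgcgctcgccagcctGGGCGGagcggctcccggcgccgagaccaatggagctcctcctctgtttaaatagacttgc
Its CpG ratio was 1.08. The brighter probe set was at 9.40, 9.50 and 9.24 in WT and at 8.94, 9.32 and 8.99 in Apcmin. Of the Apcmin arrays, replicates 1 and 3 were below every WT array, and replicate 2 was above WT replicate 3. The difference was -0.30 with a standard error of 0.17 and a 95% confidence interval from -0.69 to 0.10 (limma, unadjusted p = 0.116, adjusted p = 0.954). With any 1 array left out it ranged from -0.42 to -0.23.

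The second Cdkn1b probe set did not show that difference. It was at 8.65, 8.05 and 8.75 in WT and at 8.89, 8.66 and 8.45 in Apcmin. The groups overlapped, with WT replicate 2 below all other arrays. The difference was 0.19 with a 95% confidence interval from -0.37 to 0.74 (limma, adjusted p = 0.955), and -0.03 without WT replicate 2. Over the 6 arrays the 2 Cdkn1b probe sets did not run together (r = -0.54). The gap between them averaged 0.90 ± 0.49 (SD, n = 3) over the WT arrays and 0.42 ± 0.32 over the Apcmin arrays (two-sided exact permutation p = 0.30). The mean of both probe sets gave a Cdkn1b difference of -0.06.

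Cdkn1c encodes p57, an imprinted Cip/Kip gene expressed from the maternal copy and linked to the quiescence of stem cells. It lies at chr7:143458339-143461059. The probe set was at 4.12, 4.04 and 4.26 in WT and at 4.16, 3.76 and 4.16 in Apcmin. Apcmin replicate 2 was the lowest array, and both other Apcmin arrays lay within the WT range. The difference was -0.11 with a 95% confidence interval from -0.52 to 0.29 (limma, adjusted p = 0.958), 0.02 without Apcmin replicate 2 and -0.03 with values under 4 set to 4. The pooled SD of 0.18 was small for that level, where the median was 0.42. Genes with a mean from 3 to 4.5 had a median difference of -0.18.

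Among the Ink4 genes, Cdkn2c and Cdkn2d were bright and Cdkn2a and Cdkn2b dim. Cdkn2c encodes p18, which limits the self-renewal of stem cells in mice, and lies at chr4:109660876-109666756. It was at 6.95, 6.88 and 7.41 in WT and at 7.12, 7.69 and 6.84 in Apcmin, so the highest and the lowest array were both Apcmin. The difference, the single one above 0 among the 7 genes, was 0.14 with a 95% confidence interval from -0.48 to 0.76 (limma, adjusted p = 0.965). Leaving out Apcmin replicate 2 gave -0.10, and leaving out Apcmin replicate 3 gave 0.33. Cdkn2d encodes the p19 protein of the Ink4 group, distinct from p19Arf, and lies at chr9:21288459-21291421. It was at 8.04, 7.40 and 7.50 in WT and at 7.38, 7.68 and 7.56 in Apcmin. WT replicate 1 stood above the other 5 arrays, which lay within the span from 7.38 to 7.68. The difference was -0.11 with a 95% confidence interval from -0.61 to 0.39 (limma, adjusted p = 0.965), and 0.09 without WT replicate 1.

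Cdkn2a and Cdkn2b are neighbours on the minus strand of chromosome 4, at chr4:89274473-89294619 and chr4:89306289-89311032. Cdkn2a makes p16Ink4a and p19Arf from separate first exons that share later exons in different reading frames. Its 2 RefSeq starts lie 12427 bases apart, the upstream one being that of Arf. Their windows are shown because 1 probe set stands for this gene of 2 products. Capitals mark GC boxes.
Cdkn2a upstream, chr4:89294620-89294869, minus strand: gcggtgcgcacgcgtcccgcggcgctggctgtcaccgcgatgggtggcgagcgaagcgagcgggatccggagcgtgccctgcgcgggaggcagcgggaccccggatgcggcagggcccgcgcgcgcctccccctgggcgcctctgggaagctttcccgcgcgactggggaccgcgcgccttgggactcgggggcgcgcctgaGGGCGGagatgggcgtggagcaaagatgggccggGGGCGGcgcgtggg
Cdkn2a downstream, chr4:89282193-89282442, minus strand: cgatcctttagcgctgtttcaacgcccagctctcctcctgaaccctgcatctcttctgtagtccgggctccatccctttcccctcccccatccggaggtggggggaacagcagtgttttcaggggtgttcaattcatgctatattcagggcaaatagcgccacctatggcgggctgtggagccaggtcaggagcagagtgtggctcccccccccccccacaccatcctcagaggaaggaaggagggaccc
The upstream window held 2 GC boxes and had a CpG ratio of 1.08. The downstream window held none and had a ratio of 0.32. The Cdkn2a probe set was at 2.49, 2.15 and 2.14 in WT and at 1.85, 2.46 and 2.33 in Apcmin, where the groups overlapped. The difference was -0.04 with a 95% confidence interval from -0.54 to 0.45 (limma, adjusted p = 0.985). It turned to 0.07 without WT replicate 1, to 0.14 without Apcmin replicate 1 and to 0.07 after a further quantile normalization. The files do not say which product this probe set reads.

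Cdkn2b encodes p15, an Ink4 protein that TGF-beta induces. It was at 2.48, 2.39 and 1.37 in WT and at 1.23, 1.59 and 1.29 in Apcmin. WT replicates 1 and 2 stood above the other 4 arrays, and WT replicate 3 lay within the Apcmin range. The difference of -0.71 was the largest of the 7 genes and had a 95% confidence interval from -1.45 to 0.03 (limma, unadjusted p = 0.0575, adjusted p = 0.954). With the replicate number as a block the unadjusted p in limma was 0.0474. Without WT replicate 3 the difference was -1.06 (limma, unadjusted p = 0.0011, adjusted p = 0.333). In that fit 5864 of all probe sets had an unadjusted p under 0.05. With 16 added before log2 the Cdkn2b difference was -0.14, and with values under 4 set to 4 it was 0.00. The receptor probe sets had their highest median, 1.63, on WT replicate 1 and medians from 1.32 to 1.41 on the others. Genes with a mean under 3 had a median difference of -0.13. The part of either in the Cdkn2b value was not tested.

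**Figure D3:**
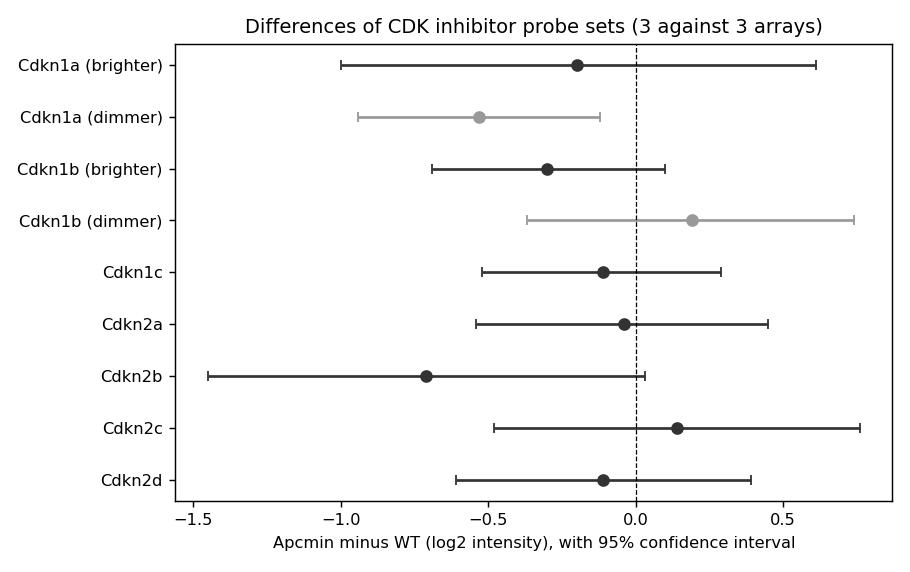
Apcmin minus WT difference in log2 intensity for each of the 9 CDK inhibitor probe sets, with 95% confidence intervals from limma (dark for the probe set that stands for a gene, grey for the dimmer ones). The interval of the dimmer Cdkn1a probe set, from -0.94 to -0.12, lies below 0 without adjustment for the number of probe sets, and the other intervals include 0.

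As folds, the ends of the unadjusted intervals were 0.62 and 1.07 times the WT intensity for the brighter Cdkn1b probe set and 0.78 and 1.67 times for the dimmer one. They were 0.66 and 1.31 times for Cdkn2d, 0.72 and 1.69 times for Cdkn2c and 0.50 and 1.52 times for the brighter Cdkn1a probe set. For Cdkn1c they were 0.70 and 1.22 times, which at this level may understate a change in the transcript.

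The array that stood out was not the same from gene to gene. The median deviation of the 7 genes from their own means over the arrays was 0.17 on WT replicate 1, -0.09 on WT replicate 2 and 0.01 on WT replicate 3. It was -0.22, 0.09 and -0.25 on Apcmin replicates 1, 2 and 3. The groups overlapped in this median. Among the 4 bright genes, Cdkn1a and Cdkn2c varied most alike over the 6 arrays (r = 0.68), followed by Cdkn1b and Cdkn2d (r = 0.37), and the other pairs were between -0.01 and 0.14. Of 8657 genes with a mean of at least 6, the 2 whose values followed each bright member most closely were Iqgap1 (r = 0.989) and Ncoa7 (r = 0.985) for Cdkn1a, Ubl7 and Foxo4 (both r = 0.991) for Cdkn1b, Gabpa (r = 0.987) and Crip1 (r = 0.982) for Cdkn2c, and Chrnb1 and Gm12338 (both r = 0.987) for Cdkn2d. These are the highest of many correlations over 6 arrays and describe the arrays only.

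The kinases, cyclins and retinoblastoma proteins that the inhibitors act on were bright, and none passed. Of 13 such genes measured out of 14 listed, the Apcmin mean was above the WT mean for 9 and below it for 4, and the median difference was 0.01. In limma 0 of the 13 had a p under 0.05 with or without adjustment, against 3.11% of all genes without it. Cdk4 and Cdk6, the kinases that Ink4 proteins bind, differed by -0.03 and 0.01. Cdk2, the main Cip/Kip target, was at 7.42, 8.25 and 8.45 in WT and at 8.33, 8.30 and 8.34 in Apcmin. Its difference of 0.28 came with WT replicate 1 below the other 5 arrays, and the second Cdk2 probe set did not share its sign. The D cyclins differed by 0.01 (Ccnd1), 0.07 (Ccnd2) and 0.01 (Ccnd3), and Ccne1, cyclin E1, by 0.26 with overlapping groups. Rb1 differed by 0.20, which its second probe set did not share in sign, and Rbl2, p130 of resting cells, by -0.11.

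Genes known to control the CDK inhibitors were also without a call. Of 29 measured out of 30 listed, the Apcmin mean was higher for 15 and lower for 14, and the median difference was 0.00. Over all genes the groups did not overlap for 7.73% in either direction, and for 2.97% with Apcmin higher. Among the 29 they did not overlap for 2, both higher in Apcmin. One was Ezh2, the polycomb methyltransferase that silences the Cdkn2a locus, at 9.72, 9.83 and 9.91 in WT and at 10.13, 9.97 and 10.11 in Apcmin, a difference of 0.25 (limma, unadjusted p = 0.115, adjusted p = 0.954). The other was Fbxw7, named after its values were seen, with a difference of 0.23. Bmi1, the polycomb protein that holds Cdkn2a down in stem cells, differed by 0.07. Skp2, which marks p27 for degradation, differed by -0.28, though 1 of the 5 further Skp2 probe sets shared that sign, and its partner Cks1b by 0.00. Foxo3, which activates Cdkn1b, differed by 0.00, Myc, which represses Cdkn1a, by -0.06, and Gfi1, a repressor of Cdkn1a, by 0.05. Trp53 was not analysed here.

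Of 19 p53 targets measured beside Cdkn1a, the Apcmin mean was higher for 8 and lower for 11. Their median difference was -0.05, and 0 had an unadjusted p under 0.05 in limma. Mdm2, the feedback inhibitor of p53, differed by -0.09, and Ccng1, cyclin G1, by 0.11. Among 16 proliferation genes, the Apcmin mean was higher for 13 and lower for 3, with a median difference of 0.10, and none passed. For some of the 13 no further probe set of the gene shared the sign (Mcm5, Rrm2, Kif11 and Aurka). For others each further probe set did (Mcm2, Bub1, Aurkb and Cdc20). Over all genes 43% had a higher mean in Apcmin, a share that includes many dim genes. Of the 16 proliferation genes, 15 had a mean of at least 6, and all genes at that level had a median difference of 0.02. The groups did not overlap for 2 of the 16, Mcm3 (0.12) and the spindle checkpoint kinase Bub1 (0.32), both higher in Apcmin. Both are named after their values were seen. Of the 5 Mcm3 probe sets, 2 others shared the sign of the one used. Of all genes, 2.97% separated the groups in that direction and 7.73% in either direction. Mki67, which marks cycling cells, averaged 10.46 ± 0.05 (SD, n = 3) over the WT arrays and 10.51 ± 0.05 over the Apcmin arrays. Pcna, the sliding clamp of DNA replication, differed by -0.07.

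**Figure D4:**
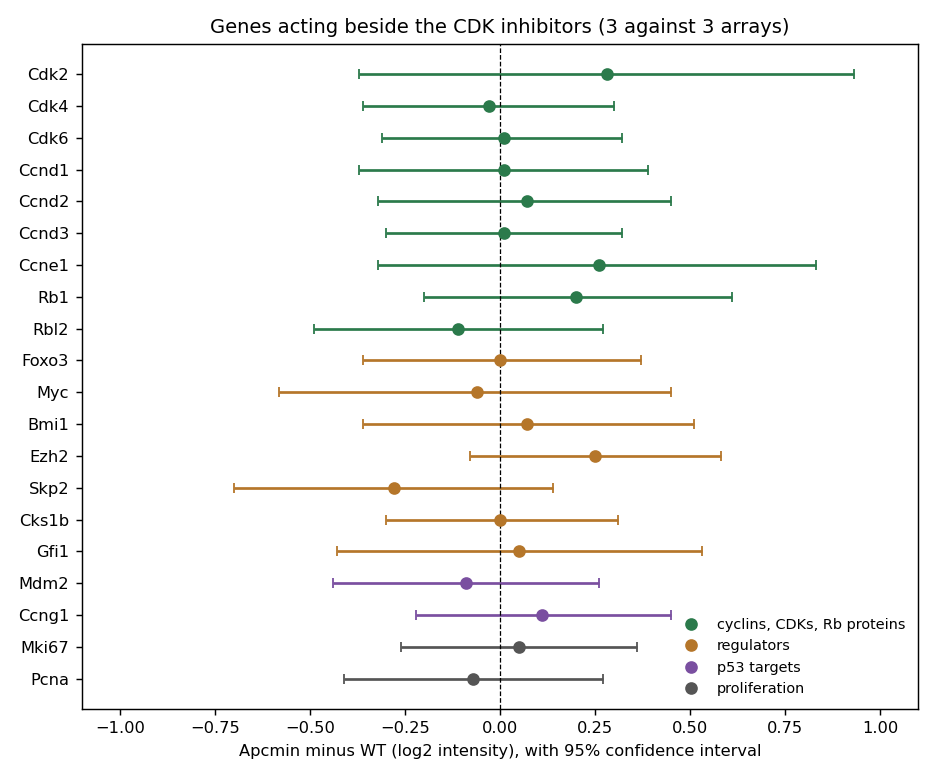
Apcmin minus WT difference in log2 intensity with 95% confidence intervals from limma for 20 named genes that act beside the CDK inhibitors, coloured by list. Every interval includes 0, and Cdk2 (0.28, a sign its second probe set did not share) and Skp2 (-0.28) are farthest from it.

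No marker of the sorted population passed. All 10 listed (among them Kit, Cd34 and Flt3) had a mean of at least 6, with differences from -0.22 to 0.09, and 10 markers of long-term stem cells had a median difference of 0.11. Of 29 markers of other cell types, 23 had a lower mean in Apcmin, beside 57% of all genes. The median difference of the 29 was -0.16. Genes with a mean under 3 had a median difference of -0.13, and those from 3 to 4.5 had -0.18. For 5 of the 23 the unadjusted p in limma was under 0.05, and none passed after adjustment. Of all genes, 1.89% had such an unadjusted p with Apcmin lower and 3.11% in either direction. The summed level of the 29 markers ranged from 13.22 to 13.61 in WT and from 13.24 to 13.34 in Apcmin. Of 6 red cell markers listed, 3 were measured, Hba-a1, Slc4a1 and Alas2, and all were dim. Their summed level did not overlap between the groups (4.70 to 5.23 in WT, 3.89 to 4.07 in Apcmin). Slc4a1, the brightest, had a mean of 4.46 in WT and 2.98 in Apcmin. Hba-a1 (2.32 in WT) and Alas2 (2.15 in WT) lay below 2.96, the 95th percentile of the receptor probe sets. The groups overlapped for Alas2. Of all genes, 4.76% separated the groups with Apcmin lower and 7.73% in either direction. In all, 4 of the 29 markers did so, each lower in Apcmin. They are named after their values were seen: Hba-a1 and Slc4a1, the monocyte receptor Cd14 (difference -1.02) and Nkg7, a granule protein of T and NK cells, at 11.06, 11.03 and 11.05 in WT and at 10.66, 10.84 and 10.61 in Apcmin. Of the 29 markers, 8 had a mean of at least 6. These included S100a8 and S100a9, at 11.26 or above on every array, and Nkg7, with Csf1r, Cd79b and Emcn in the range from 7.01 to 8.87. The other 21 were dimmer, with Cd3e, Ms4a1, Itgam and Cdh5 at or below 3.68 on every array. The part of other cells in the CDK inhibitor values was not tested. In bulk RNA fewer cells of a type and less RNA per cell cannot be told apart. Nor does bulk RNA show whether the sorted cells or others made the bright marker transcripts.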

How the data were processed

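The values deposited by the authors are normalized intensities, linear, with 1 for each probe set on each array. Per the submitters' processing notes RMA was used. The version and the background correction are not given in the sources used. The design had left the scale open, and log2 was taken with no pseudocount. Of the probe sets, 64 controls were left out. Symbols came from the platform annotation, where 34945 probe sets had exactly 1 and 932 several, and 34741 matched a RefSeq table by Entrez identifier. Apcmin was compared with WT in limma 3.58.1 (lmFit, eBayes, no covariate), with p-values adjusted by Benjamini-Hochberg over 45037 probe sets, and the fit was tested on simulated data. Precision is limited by the number of arrays. The median 95% half-width of a difference was 0.50, or 0.41 for means of at least 6. The arrays correlated between 0.974 and 0.989 and none were identical. Promoter windows came from RefSeq (GRCm38.p6), which matched 6 of the 7 genes. The members, the lists of other genes and the alternatives were chosen with earlier results of these data known. The text names all members, a set of partner genes listed beforehand by symbol and, for each member with a mean of at least 6, the 2 genes most correlated with it. Alternatives were a further quantile normalization, 16 added before log2, a floor at 4, filters at the median and at 6, a mean-variance trend, the replicate number as a block, the mean of a gene's probe sets, and leaving out each array.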

Additional observations from a re-analysis of the deposited data

How the results depend on the processing

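No CDK inhibitor gene passed under any alternative run, and the count of probe sets past an adjusted p of 0.05 was 0 in each of those that kept single probe sets, the replicate block among them. At an unadjusted p under 0.05 the count went from 1714 to 486 with a filter at a mean of 6, to 757 with a filter at the median and to 911 with values under 4 set to 4. Fewer probe sets are tested under the filters. With 1 array left out it ranged from 1267 to 5864, the highest without WT replicate 3. The median difference of the 7 genes was between -0.14 and -0.03 under the other settings, and from -0.23 to -0.10 with 1 array left out.

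Leaving out 1 array turned the sign of Cdkn1a (from -0.39 to 0.15), Cdkn1c (-0.18 to 0.02), Cdkn2a (-0.17 to 0.14), Cdkn2c (-0.10 to 0.33), Cdkn2d (-0.23 to 0.09) and the dimmer Cdkn1b probe set (-0.03 to 0.32), and not that of Cdkn1b, Cdkn2b or the dimmer Cdkn1a probe set. A further quantile normalization gave 0.07 for Cdkn2a. The cause was not tested. Over probe sets with a mean of at least 6, same-numbered arrays of the 2 groups did not deviate together. Their correlations were 0.05, -0.054 and -0.247, beside -0.159 to 0.213 for arrays with different numbers. So few correlations show no pairing by number but cannot exclude it. The replicate block left 1398 probe sets at an unadjusted p under 0.05 in limma. Both filters leave out Cdkn1c, Cdkn2a and Cdkn2b, and the level of the latter pair near the receptor probe sets limits what can be said of them.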
